A study of Mus musculus with 6 samples.

Results

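The Hox genes of mouse bone marrow mesenchymal stem cells (MSCs) were taken as every gene of the deposited count table whose symbol is Hoxa, Hoxb, Hoxc or Hoxd followed by a number. This gave 35 genes of the 20071 Ensembl IDs in the table, with 11 in cluster A, 8 in cluster B, 9 in cluster C and 7 in cluster D. The annotation used here, GENCODE M21, has 10 genes in cluster B and 9 in cluster D. Hoxb1, Hoxb13, Hoxd1 and Hoxd12 were absent from the counts. Poly(A) RNA had been sequenced from 3 libraries of Pcif1fl/fl MSCs (labelled WT) and 3 of Prrx1-Cre;Pcif1fl/fl MSCs (labelled CKO), all from femurs of 6-week-old C57BL/6J mice and all kept for 7 days in osteogenic medium whose additions were dexamethasone at 100 nM, β-glycerophosphate at 5 mM and ascorbic acid at 50 µg/mL. Both genotypes carry the loxP-flanked Pcif1 allele. Only the CKO mice carry Prrx1-Cre, a recombinase that acts in limb mesenchyme and its descendants and removes exons 5 to 7 of Pcif1, the gene of the enzyme that methylates a cap-adjacent adenosine to form m6Am. Blood-derived cells of a culture lie outside that lineage. The series' own text speaks of biological duplicates, whereas 3 samples are labelled for each genotype, so it is not stated whether all 3 came from separate mice or cultures, and p-values measure the spread between these libraries, which may be technical.

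Hox genes encode homeodomain transcription factors that lie in 4 clusters, each on its own chromosome. Genes with the same number in different clusters, such as Hoxa10 and Hoxc10, are paralogs, and low numbers are switched on in anterior and high numbers in posterior or distal parts of the embryo. Cells of the adult skeleton and connective tissue keep much of the Hox code of the site where they arose. In the limb, group 9 and 10 genes are known for the upper limb bone, group 11 genes for the lower limb bones and group 13 genes for the hand and foot, and posterior HoxC genes mark the hindlimb.

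The libraries held between 20258209 and 28227696 counts, and the Hox genes together took 3189, 3691 and 4692 of them in WT replicates 1 to 3 and 2494, 2259 and 2232 in CKO replicates 1 to 3. Pcif1 was at 41.2 ± 1.79 CPM (SD, n = 3) in WT and 38.9 ± 1.01 CPM (SD, n = 3) in CKO libraries, with overlapping groups, and counts per gene do not show whether its exons 5 to 7 were lost. WT replicate 3 stood apart, with 3.63% of its counts on mitochondrial genes against 1.40% to 1.57% in the other 5 libraries, so values that it moved most are also given without it. Xist was between 232 and 442 CPM in the WT libraries and between 0.721 and 1.79 CPM in the CKO libraries, while Y-linked genes summed to between 115 and 158 CPM in the WT and between 218 and 230 CPM in the CKO libraries. Both were thus present in the WT libraries, and the mix of sexes and the genotype cannot be told apart here. The cultures held more than stromal cells. The 8 macrophage markers summed to between 27734 and 29855 CPM in WT and between 27210 and 30672 CPM in CKO libraries. Most of this was Lyz2, with means of 24306 and 23887 CPM, so the sum does not show the others. None was called at an adjusted p-value under 0.05. Every CKO library lay below every WT library for 1, Csf1r, and above for 3, Adgre1, Cd14 and Itgam, beside 15.7% and 15.0% of all genes. Without WT replicate 3, 1 was called lower and 3 higher, while 21.5% of all genes were called. Of 12 stromal markers, 4 were called lower and 5 higher in CKO libraries, beside 4.51% and 2.88% of all genes tested, and those with the smallest p-values were Cxcl12, Lepr, Eng, Thy1 and Col1a1 (log2 fold changes -2.44, -2.72, -1.11, 1.52 and 0.61). Without WT replicate 2 or CKO replicate 1, 2 or 3, only 4, 3, 4 and 4 of the 12 were called. Of all genes, 4.57%, 3.38%, 3.73% and 3.41% were called in these runs, beside 7.4% with all libraries. Of 5 endothelial markers 0 were called, with a median log2 fold change of -0.48. Among them Cdh5 was at 12.4, 10.4 and 16.1 CPM in WT and 8.23, 8.41 and 8.08 CPM in CKO libraries (log2 fold change -0.66, adjusted p = 0.0618), and it was called by DESeq2, with total-count scaling, with no filter and without WT replicate 2 or 3. Of the others, 1 neutrophil marker was tested and called higher (S100a8, log2 fold change 1.45, not called without WT replicate 1 or 2 or any CKO library, with the replicate block or with the GC content and length correction), and the lymphoid and erythroid markers were too low to test, with a sum of at most 0.175 CPM. The limb mesenchyme gene Prrx1 was at 236 ± 41.1 CPM in WT and 280 ± 3.62 CPM in CKO libraries (SD, n = 3 each). In bulk RNA, fewer cells of a type and less RNA per cell cannot be told apart, and the part of these markers in the Hox values was not tested.

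The Hox genes of these cultures came mostly from clusters C and A. Levels between genes are compared as CPM per kb of exon, where CPM is a count scaled by library size and TMM factor. The order and the shares of genes by this level were not compared with those for other lengths. Cluster C (chromosome 15, 102921103 to 103036852, GRCm38) made up 57.2% of the summed Hox level in WT and 49.9% in CKO libraries, and cluster A (chromosome 6, 52155590 to 52260880) made up 37.2% and 44.1%. Cluster B (chromosome 11, 96194316 to 96368256) held 4.52% and 4.29%, and cluster D (chromosome 2, 74668310 to 74765142) held 1.02% and 1.68%. By paralog number, group 10 was the largest contributor, with 32.2% of the summed level in WT and 34.97% in CKO libraries, followed by group 6 with 17.7% and 14.5%.

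The most abundant member per length was Hoxc10, a posterior gene known from the hindlimb and lumbar region. It was at 12.1 ± 2.75 CPM per kb in WT and 7.80 ± 1.03 CPM per kb in CKO libraries (SD, n = 3 each). Hoxa10, its paralog in cluster A, was at 7.46 ± 0.781 and 7.55 ± 0.337, and Hoxc6, a gene of the lower cervical and thoracic region, at 7.56 ± 1.10 and 4.41 ± 0.211 CPM per kb (SD, n = 3 each). These 3 stood above all other members in both genotypes. Next in WT came Hoxc9 at 3.56 and 2.38, Hoxa5 at 3.28 and 1.71, Hoxa7 at 3.07 and 2.49 and Hoxa6 at 3.01 and 1.85 CPM per kb, whose WT values differed by less than their spread.

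**Figure D1:**
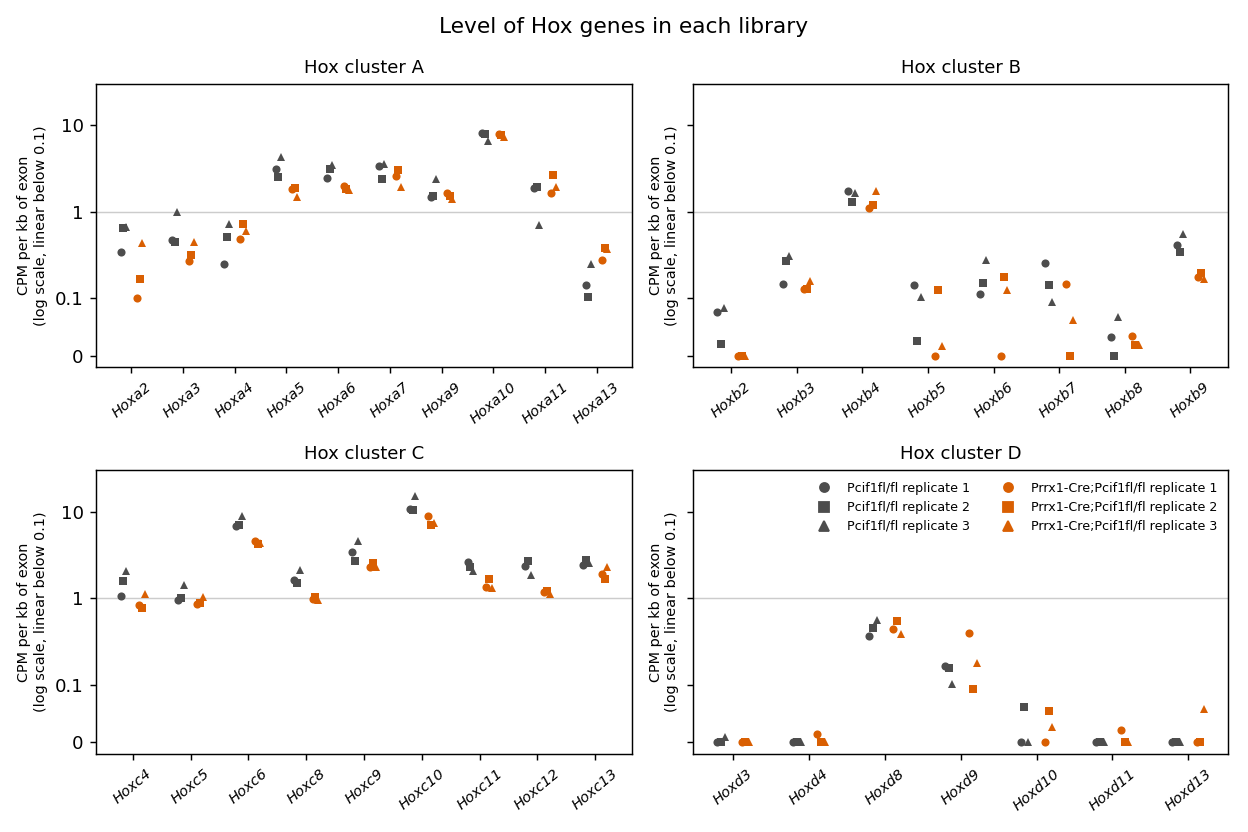
Level of Hox genes in CPM per kb of exon (log scale, linear below 0.1), by cluster and in order of paralog number, with 1 point for each library. Clusters A and C hold nearly all points above the line at 1, Hoxb4 is the 1 cluster B gene above it, and no cluster D gene reaches it.

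Outside clusters A and C, few members were measurable. In cluster B, Hoxb4 was at 1.55 ± 0.231 CPM per kb in WT and 1.33 ± 0.327 in CKO libraries (SD, n = 3 each), and Hoxb3 and Hoxb9 were the only others that passed the expression filter. Hoxb5, Hoxb6, Hoxb7 and Hoxb8 had between 0 and 15 counts in a library. Hoxb2, a gene of the hindbrain, had 6, 2 and 8 counts in WT replicates 1 to 3 and 0 in each CKO library, where a count of 0 allows up to 3, so no fold is given. In cluster D, Hoxd8 was the 1 gene tested, at 0.461 ± 0.0979 and 0.457 ± 0.0802 CPM per kb (SD, n = 3 each). Hoxd9 had between 4 and 19 counts in a library, and Hoxd3, Hoxd4, Hoxd10, Hoxd11 and Hoxd13 had between 0 and 3. The group 10, 11 and 13 transcripts that were measurable were thus those of clusters A and C. The depth does not show whether their cluster D paralogs were silent or below about 3 counts, and Hoxb13 was absent from the counts.

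The genes that select limb identity in the embryo were also read. Pitx1, the hindlimb selector, was at 14.8, 10.9 and 9.89 CPM in WT replicates 1 to 3 and 14.4, 13.1 and 13.8 CPM in CKO replicates 1 to 3. Tbx5, the forelimb selector, had 0 counts in 5 libraries and 8 counts in WT replicate 3, the library that stood apart. Tbx4, which acts with Pitx1 in the hindlimb, was at 0.393, 0.477 and 1.08 CPM in WT and 1.89, 2.14 and 1.97 CPM in CKO libraries.

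Which Hox genes differed between the genotypes was tested over 13733 genes by the quasi-likelihood test of edgeR, with Benjamini-Hochberg adjustment, and 24 of the 35 Hox genes passed its expression filter. Hoxa5, Hoxc6, Hoxc8 and Hoxc12 were called lower in CKO libraries at an adjusted p-value under 0.05, and no Hox gene was called higher. That is 16.7% of the Hox genes tested, beside 4.51% of all genes called lower and 2.88% called higher. No Hox gene was called at a fold change of at least 2, where 2.50% of all genes were lower and 1.03% higher. At an unadjusted p under 0.05, 13 Hox genes were lower and 1 was higher, beside 11.8% and 9.56% of all genes. DESeq2 called 5 genes lower at any fold and 0 at a fold of at least 2, whereas limma-voom called 1 and the fit with the replicate number as a block called 1, in both cases lower.
The number of calls changed when 1 library was left out. Leaving out any 1 CKO library left 0 Hox genes called, and without WT replicate 1 or 2 there were 1 and 2. The share of all genes called fell too, from 7.4% to 3.38%, 3.73% and 3.41% without CKO replicates 1, 2 and 3. It was 5.59% and 4.57% without WT replicates 1 and 2. The median log2 fold change of the Hox genes was -0.59, -0.60 and -0.57 without CKO replicates 1, 2 and 3, beside -0.61 with all libraries. Without WT replicate 3, 7 were called, 6 lower and 1 higher, while the share of all genes called rose to 21.5%.

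Every tested member of cluster C had a negative log2 fold change, 9 of 9, with a median of -0.68 and a range from -0.97 to -0.28. In cluster A 7 of 11 were negative, with a median of -0.25 and a range from -1.24 to 1.04. All 3 tested genes of cluster B were negative, with a median of -0.80, and Hoxd8 of cluster D was at -0.020. Over the 24 members, the median was -0.61 and 20 were negative, beside a median of 0.0017 and 49.7% negative over all genes tested. Every CKO library lay below every WT library for 10 Hox genes, 7 of them in cluster C, and above for 1, beside 15.7% and 15.0% of all genes. Genes of 1 cluster are neighbours and are not independent of each other, so these counts are a description.

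**Figure D2:**
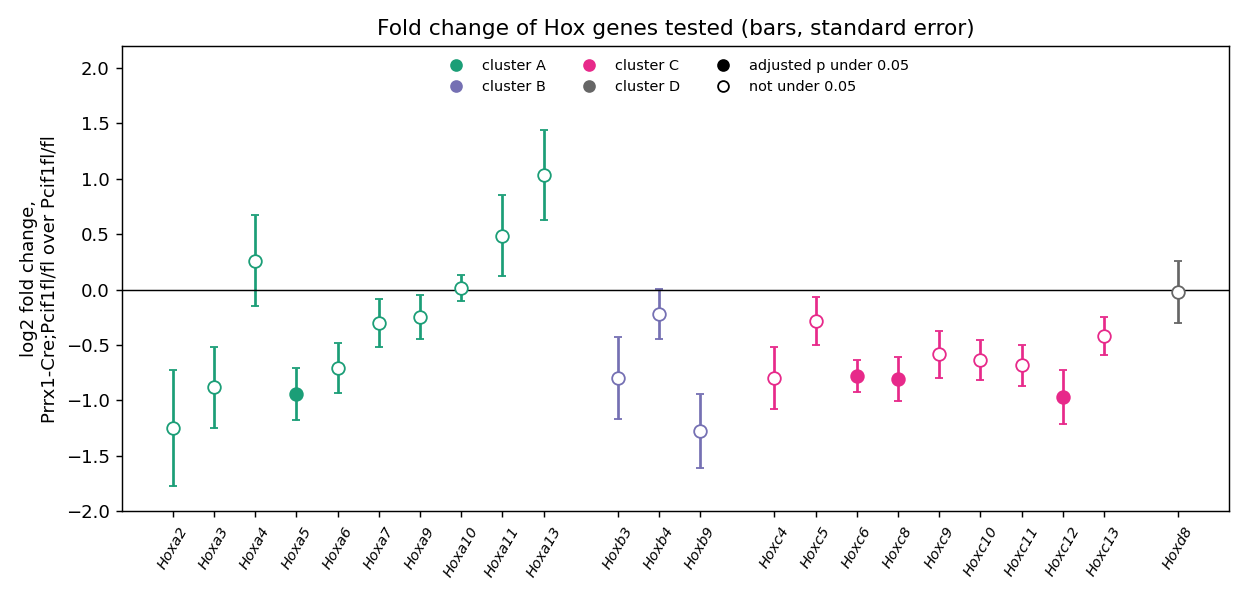
Log2 fold change of CKO over WT with its standard error for Hox genes tested, in order of paralog number within each cluster; filled points are the 4 genes with an adjusted p-value under 0.05. All cluster C points lie below 0, and those of cluster A run from -1.24 for Hoxa2 to 1.04 for Hoxa13.

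Within cluster C, Hoxc6 had the smallest p-value. Its level was 16.4, 16.9 and 21.2 CPM in WT replicates 1 to 3 and 11.2, 10.1 and 10.5 CPM in CKO replicates 1 to 3, a log2 fold change of -0.78 (standard error, SE, 0.14, adjusted p = 0.0129). All CKO libraries were below all WT libraries, and the 2 lower WT libraries were close to each other. Without WT replicate 3 the log2 fold change of Hoxc6 was -0.65 (adjusted p = 0.00062), and without CKO replicates 1, 2 and 3 in turn the adjusted p was 0.0617, 0.0727 and 0.0747.
Hoxc8, known for patterning the thoracic skeleton and its motor neurons, was at 4.54, 4.19 and 5.98 CPM in WT and 2.79, 2.94 and 2.69 CPM in CKO libraries, a log2 fold change of -0.81 (SE 0.20, adjusted p = 0.0446). Hoxc12, among the most posterior genes of the cluster, was at 2.44, 2.75 and 1.90 CPM in WT and 1.21, 1.24 and 1.15 CPM in CKO libraries, a log2 fold change of -0.97 (SE 0.24, adjusted p = 0.0488). The groups did not overlap for either gene, and the CKO libraries of Hoxc12 rest on only 24 to 27 counts each. Hoxc8 was not called without WT replicate 1 or 2 or any CKO library, nor was Hoxc12, which also missed the threshold with a mean of at least 10 counts as filter (adjusted p = 0.0518). With limma-voom (adjusted p = 0.0626 and 0.0681) and with the replicate block (adjusted p = 0.093 and 0.0992) neither passed.

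The other members of cluster C did not pass the threshold. Hoxc10 was at 20.5, 19.7 and 29.1 CPM in WT and 17.1, 13.5 and 14.0 CPM in CKO libraries, a log2 fold change of -0.63 (SE 0.18, adjusted p = 0.0753). The CKO libraries lay below the WT libraries, of which replicate 3 was highest. Without that library the log2 fold change was -0.43 (adjusted p = 0.0158), and DESeq2 called the gene (adjusted p = 0.0249). Of the exonic bases of Hoxc10, 8.70% are shared with Hoxc5 on the same strand.
Hoxc9, known from the thoracic spinal cord, was at 8.25, 6.50 and 11.2 CPM in WT and 5.58, 6.22 and 5.53 CPM in CKO libraries, a log2 fold change of -0.58 (SE 0.21, adjusted p = 0.151). Hoxc11, a gene of the hindlimb and sacral region, was at 5.24, 4.66 and 4.19 CPM in WT and 2.74, 3.38 and 2.64 CPM in CKO libraries, a log2 fold change of -0.68 with an adjusted p of 0.066. Hoxc13, known for hair and nail keratins, was at 5.89, 6.87 and 6.34 CPM in WT and 4.63, 4.08 and 5.58 CPM in CKO libraries, a log2 fold change of -0.42. In these 3 genes too the groups did not overlap, although in Hoxc9 the lowest WT library, at 6.50, was close to the highest CKO library, at 6.22, and without WT replicate 3 its log2 fold change was -0.35.
At the anterior end of the cluster the groups did overlap. Hoxc4 was at 2.75, 4.04 and 5.30 CPM in WT and 2.11, 1.99 and 2.88 CPM in CKO libraries, a log2 fold change of -0.80, and Hoxc5 at 2.92, 3.09 and 4.34 CPM in WT and 2.61, 2.74 and 3.17 CPM in CKO libraries, a log2 fold change of -0.28. In both, 1 CKO library lay within the WT range, and without WT replicate 3 their values were -0.55 and -0.081.

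In cluster A the posterior gene Hoxa10, known for the upper limb bone and the lumbar spine, was the most abundant member and had the log2 fold change closest to 0. Its level was 26.1, 25.6 and 21.5 CPM in WT and 25.4, 25.3 and 23.4 CPM in CKO libraries, with a log2 fold change of 0.018 (SE 0.12, adjusted p = 0.948). The groups overlapped throughout, and the sign turned with total-count scaling. The members on either side of Hoxa10 were spread to both sides of 0.
Hoxa5, known from the lung and the cervical and thoracic skeleton, was the 1 cluster A gene called. It was at 5.81, 4.66 and 8.03 CPM in WT and 3.37, 3.48 and 2.79 CPM in CKO libraries, a log2 fold change of -0.94 (SE 0.23, adjusted p = 0.0474). The groups did not overlap, and WT replicate 3 was the highest library. Without it the log2 fold change was -0.69 (adjusted p = 0.0209), and over the GC content and length correction, limma-voom, the absence of WT replicate 1 and the replicate block the adjusted p was 0.0516, 0.0732, 0.0853 and 0.0901. Without CKO replicates 1, 2 and 3 in turn it was 0.156, 0.131 and 0.186.
Its neighbour Hoxa6 also separated the genotypes, at 2.14, 2.72 and 3.05 CPM in WT and 1.71, 1.59 and 1.54 CPM in CKO libraries, a log2 fold change of -0.71 with an adjusted p of 0.105. Hoxa7 was at 9.56, 6.83 and 10.1 CPM in WT and 7.38, 8.66 and 5.48 CPM in CKO libraries, a log2 fold change of -0.30 (SE 0.22, adjusted p = 0.483), and Hoxa9 at 8.29, 8.48 and 13.1 CPM in WT and 9.04, 8.41 and 7.74 CPM in CKO libraries, a log2 fold change of -0.25. Both overlapped, and without WT replicate 3 the log2 fold changes of Hoxa7 and Hoxa9 were -0.18 and 0.0044. Hoxaas3, an antisense gene, overlaps 20.4% of the exonic bases of Hoxa7, and the counting is not stated to use strand.

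The most distal genes of cluster A had positive values. Hoxa11, known for the lower limb bones, was at 4.23, 4.37 and 1.61 CPM in WT and 3.73, 6.12 and 4.42 CPM in CKO libraries, a log2 fold change of 0.49 (SE 0.37, adjusted p = 0.502). WT replicate 3 was the lowest library, and without it the log2 fold change was 0.14. The antisense gene Hoxa11os overlaps 34.98% of the exonic bases of Hoxa11. Hoxa13, a gene of the hand and foot and the 1 Hox gene with all CKO libraries above all WT libraries, was at 0.349, 0.257 and 0.609 CPM in WT and 0.675, 0.945 and 0.914 CPM in CKO libraries, from 7 to 19 counts each, a log2 fold change of 1.04 (SE 0.40, adjusted p = 0.184). It was called without WT replicate 3, with a log2 fold change of 1.47 (adjusted p = 0.0448).
The anterior genes of cluster A were low and variable. Hoxa2, known from the pharyngeal arches, had 14, 31 and 33 counts in WT and 4, 6 and 16 counts in CKO libraries, and Hoxa3 was at 2.79, 2.68 and 5.91 CPM in WT and 1.62, 1.89 and 2.69 CPM in CKO libraries. Their log2 fold changes were -1.24 (adjusted p = 0.218) and -0.88 (adjusted p = 0.205), and both overlapped between the genotypes. Without WT replicate 3, the highest library of Hoxa3, its value was -0.40, and without CKO replicate 3 that of Hoxa2 was -2.03. Hoxa4 had a log2 fold change of 0.26 that turned to -0.034 without WT replicate 1 and was 0.64 without WT replicate 3.

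Of the 3 cluster B genes tested, Hoxb9, a thoracic gene, was at 1.05, 0.882 and 1.43 CPM in WT and 0.450, 0.497 and 0.433 CPM in CKO libraries, a log2 fold change of -1.28 (SE 0.33, adjusted p = 0.0565). The groups did not overlap, although each CKO library held only 9 or 10 counts. The adjusted p of Hoxb9 was 0.0498 with total-count scaling. Hoxb4 was at 4.41, 3.31 and 4.23 CPM in WT and 2.83, 3.03 and 4.38 CPM in CKO libraries, and Hoxb3 at 0.611, 1.14 and 1.29 CPM in WT and 0.540, 0.547 and 0.673 CPM in CKO libraries. Both overlapped, with log2 fold changes of -0.22 and -0.80, and 52.9% of the exonic bases of Hoxb3 overlap Hoxb3os. Hoxd8 was at 1.00, 1.25 and 1.54 CPM in WT and 1.21, 1.49 and 1.06 CPM in CKO libraries, and the groups overlapped.

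Summed over its members, cluster C was at 31.9, 31.8 and 40.8 CPM per kb in WT replicates 1 to 3 and at 23.0, 21.1 and 21.8 CPM per kb in CKO replicates 1 to 3, a log2 ratio of the means of -0.67. Cluster A was at 21.9, 21.7 and 24.5 in WT and 19.4, 20.95 and 17.9 CPM per kb in CKO libraries, a log2 ratio of -0.23. The groups did not overlap in either cluster, but in cluster A they came within 1 SD of each other. Cluster B was at 2.88, 2.24 and 3.13 in WT and 1.59, 1.83 and 2.25 CPM per kb in CKO libraries (log2 ratio -0.54), and cluster D at 0.529, 0.671 and 0.671 in WT and 0.879, 0.692 and 0.650 CPM per kb in CKO libraries (log2 ratio 0.25). Both overlapped. Without WT replicate 3 the log2 ratio of cluster C was -0.54 and that of cluster A was -0.17.

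Within each library, the summed level of cluster C was 1.46, 1.47 and 1.67 times that of cluster A in WT and 1.19, 1.01 and 1.22 times in CKO libraries. A ratio taken within a library does not depend on how libraries are scaled to each other. The 3 CKO ratios were lower than the 3 WT ratios, at 1.14 ± 0.116 against 1.53 ± 0.117 (SD, n = 3 each).

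**Figure D3:**
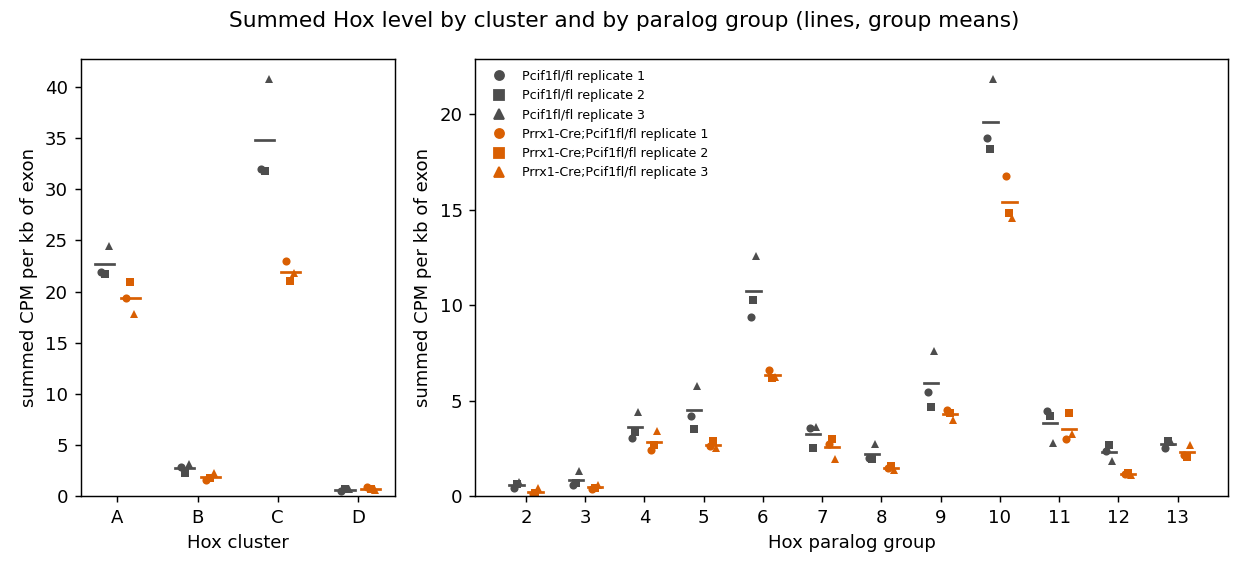
Summed level of each Hox cluster (left) and of paralog groups 2 to 13 (right) in CPM per kb of exon, with 1 point for each library and a line at each group mean. Clusters A and C carry most of the level, groups 6 and 10 have the highest sums of the paralog groups, and the CKO points of cluster C, between 21.1 and 23.0, lie below the WT points, between 31.8 and 40.8.

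By paralog number, group 6 was at 9.37, 10.3 and 12.6 CPM per kb in WT and 6.59, 6.21 and 6.26 CPM per kb in CKO libraries, a log2 ratio of -0.76. Group 10 was at 18.7, 18.2 and 21.8 in WT and 16.7, 14.8 and 14.5 CPM per kb in CKO libraries, a log2 ratio of -0.35 with Hoxa10 at a log2 fold change of 0.018 and Hoxc10 at -0.63. Group 5 was at 4.18, 3.51 and 5.78 in WT and 2.64, 2.87 and 2.53 CPM per kb in CKO libraries, a log2 ratio of -0.75. None of these 3 groups overlapped between the genotypes. Groups 3, 8, 9 and 12 did not overlap either, with log2 ratios of -0.86, -0.60, -0.47 and -0.97. Group 12 is Hoxc12 alone, and in group 3 the highest CKO library, at 0.606, was close to the lowest WT library, at 0.608. Groups 2, 4, 7 and 13 overlapped, with log2 ratios of -1.38, -0.35, -0.34 and -0.26. Group 11 was at 4.44, 4.22 and 2.78 in WT and 3.01, 4.35 and 3.24 CPM per kb in CKO libraries, with overlap and a log2 ratio of -0.11, which was between -0.29 (without WT replicate 3) and 0.015 (without WT replicate 1) with 1 library left out. Of the 7 genes tested from paralog groups 1 to 4, 6 had a negative log2 fold change (median -0.80), of the 7 from groups 5 to 8 all did (median -0.71), and of the 10 from groups 9 to 13, 7 did (median -0.50).

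Paralogs in different clusters could be compared directly, as the ratio of their counts per base of exon within a library, for 13 pairs with both genes tested. The ratio of Hoxc10 to Hoxa10 was 1.34, 1.32 and 2.33 in WT and 1.16, 0.914 and 1.03 in CKO libraries. By this length Hoxc10 stood above Hoxa10 in every WT library and about level with it in the CKO libraries. The exons of Hoxa10 together have 3270 bases and its longest transcript 2565, beside 1909 for Hoxc10 by either measure. Which paralog stands higher therefore depends on the length used, but the difference between the genotypes does not. On the log2 scale the difference was -0.64 (exact two-sided permutation p = 0.1, the smallest that 3 against 3 allows; 0.144 after Benjamini-Hochberg adjustment over the 13 pairs), and without WT replicate 3 it was -0.37. Hoxc11 over Hoxa11 went from 1.40, 1.21 and 2.94 to 0.832, 0.626 and 0.677, a change of the leading paralog, with the limit of the antisense overlap at Hoxa11. The difference of -1.27 on the log2 scale was -0.88 without WT replicate 3. Hoxc13 over Hoxa13 went from 17.0, 26.8 and 10.5 to 6.90, 4.34 and 6.13, with the low counts of Hoxa13 given above.
The pairs did not all turn the same way. Hoxc4 over Hoxa4 and Hoxc9 over Hoxa9 were also lower in every CKO library, but Hoxc5 over Hoxa5 was higher, at 0.306, 0.402 and 0.328 in WT and 0.470, 0.477 and 0.692 in CKO libraries. Hoxc6 over Hoxa6 overlapped, at 2.79, 2.26 and 2.53 in WT and 2.37, 2.31 and 2.48 in CKO libraries. The CKO ratios lay below the WT ratios for 6 pairs, above for 3 and overlapped for 4. With 3 libraries against 3, no single pair could pass the threshold.

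**Figure D4:**
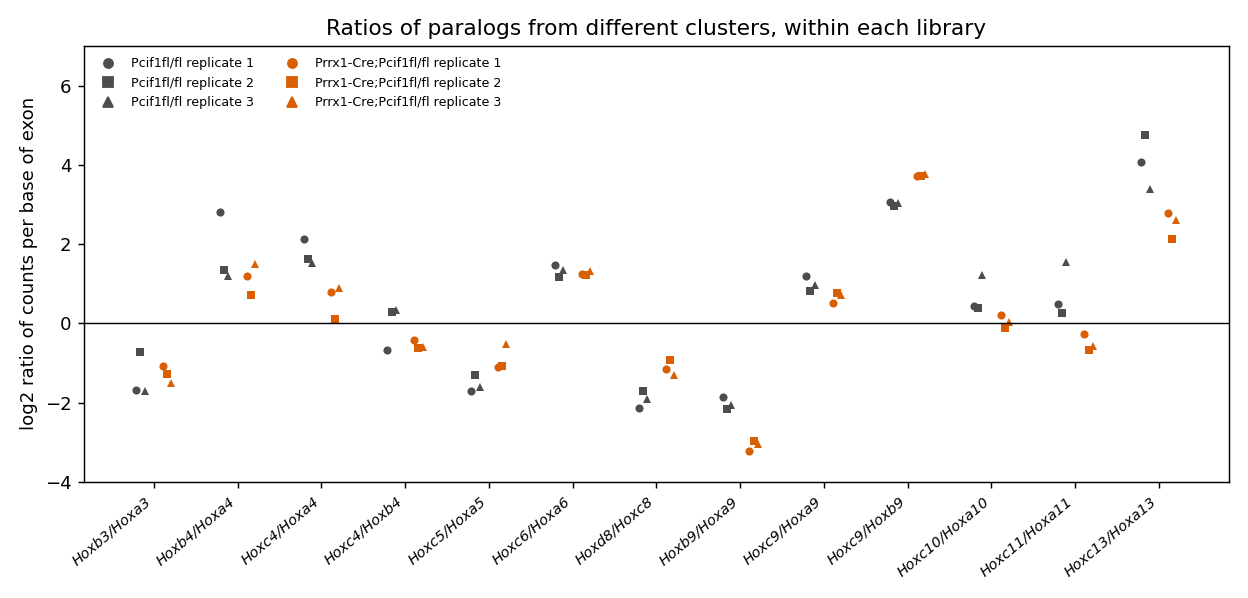
Log2 ratio of counts per base of exon for the 13 pairs of paralogs from different clusters with both genes tested, with 1 point for each library. The CKO points lie below the WT points for the HoxC over HoxA pairs of groups 4, 9, 10, 11 and 13, above them for Hoxc5 over Hoxa5, and among them for Hoxc6 over Hoxa6.

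Because PCIF1 acts on an adenosine next to the cap, the annotated first base of each Hox transcript is shown for the 4 genes called and for the 2 group 10 genes. These are the first 20 bases, 5′ to 3′, of the longest protein-coding transcript in GENCODE M21 on GRCm38, with the first base in capitals. An annotated start need not be the base at the cap in these cells.
Hoxa5: Ctccacccaactcccccatt
Hoxc6: Gaaatcatagcccgaccagg
Hoxc8: Cccgagcccgcagccggcac
Hoxc12: Cgtgagtagagcggccaatg
Hoxc10: Gggaaaaaagatgtcagctc
Hoxa10: Aagaaatgtcagccagaaag
None of the 4 called genes has an annotated A at this position, whereas Hoxa10 does. The first base was A in 8 of the 24 Hox genes tested, or 33.3%, beside 25.9% of the 13039 tested genes with a protein-coding transcript. By cluster it was A in 6 of 11 members of cluster A, 2 of 8 of cluster B, 0 of 9 of cluster C and 2 of 7 of cluster D. With any annotated protein-coding transcript of a gene allowed, 1 of 9 cluster C genes, Hoxc4, had a start at A, beside 52.1% of the tested genes. The m6Am state of these transcripts was not measured in these libraries.

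The Hox clusters also hold microRNA genes, which are known to act on Hox transcripts through short seed matches in the 3′ untranslated region. Mature microRNAs are not measured by poly(A) gene counts, so what follows describes the sequences only. The mature sequences are RefSeq's, 5′ to 3′, with the seed at bases 2 to 8 in capitals.
miR-196a-5p: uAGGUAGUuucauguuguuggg
miR-196b-5p: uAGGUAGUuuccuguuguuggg
miR-10a-5p: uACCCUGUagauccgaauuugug
miR-10b-5p: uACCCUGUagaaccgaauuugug
miR-615-3p: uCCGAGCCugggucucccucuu
The miR-196 genes lie in clusters A, B and C and share 1 seed, the miR-10 genes lie in clusters B and D and share another, and miR-615 lies in cluster C. A match to the miR-196 seed (ACTACCT) was present in the 3′ untranslated region of 6 of the 24 Hox genes tested, among them Hoxa4, Hoxa5, Hoxa7, Hoxa9 and Hoxc8, beside 7.02% of 13000 tested genes. Matches to the miR-10 seed (ACAGGGT) were present in 3 of them, among them Hoxa3 and Hoxb3, beside 15.0%, and to the miR-615-3p seed (GGCTCGG) in Hoxb4, beside 2.98%. The sites of the 2 called genes with a miR-196 match are shown with their flanks, the match in capitals.
Hoxa5 site: gatatttttattcaaACTACCTa
Hoxc8 site at base 135: acactcacaactctaACTACCTg
Hoxc8 site at base 892: ataaatctttaacatACTACCTa
Hoxa7, with 4 such matches, had a log2 fold change of -0.30 and was not called, and Hoxc6 and Hoxc12 were called without 1.

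Hox proteins bind DNA with cofactors of the TALE class, the Pbx, Meis and Pknox proteins. All 9 TALE genes of the list were tested, 4 were called lower in CKO libraries and 0 higher, beside 4.51% and 2.88% of all genes, and their median log2 fold change was -0.49. Meis1, which marks the proximal limb in the embryo, was at 8.86, 9.51 and 9.998 CPM in WT and 4.36, 5.32 and 6.30 CPM in CKO libraries (log2 fold change -0.83, adjusted p = 0.0213). Meis2 was at 12.4, 12.0 and 17.1 CPM in WT and 5.17, 7.61 and 7.02 CPM in CKO libraries (-1.07, adjusted p = 0.0154). Pknox2 was at 7.73, 6.80 and 8.85 CPM in WT and 2.79, 2.64 and 2.79 CPM in CKO libraries, with a log2 fold change of -1.51 and an adjusted p of 0.00124. These 3 genes did not overlap between the genotypes. Meis3, Pknox1 and Pbx4 had log2 fold changes of -0.018, 0.058 and 0.21, and their groups overlapped. Without 1 of the CKO libraries, 1 or 2 of the 9 were called, and without WT replicate 2 it was 2. The share of all genes called was then between 3.38% and 3.73%, and 4.57% without WT replicate 2, beside 7.4% with all libraries. Pknox2 was called under every alternative run, Meis1 not without WT replicate 2 or CKO replicate 1 or 2, and Meis2 not without CKO replicate 1 or 3.

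**Figure D5:**
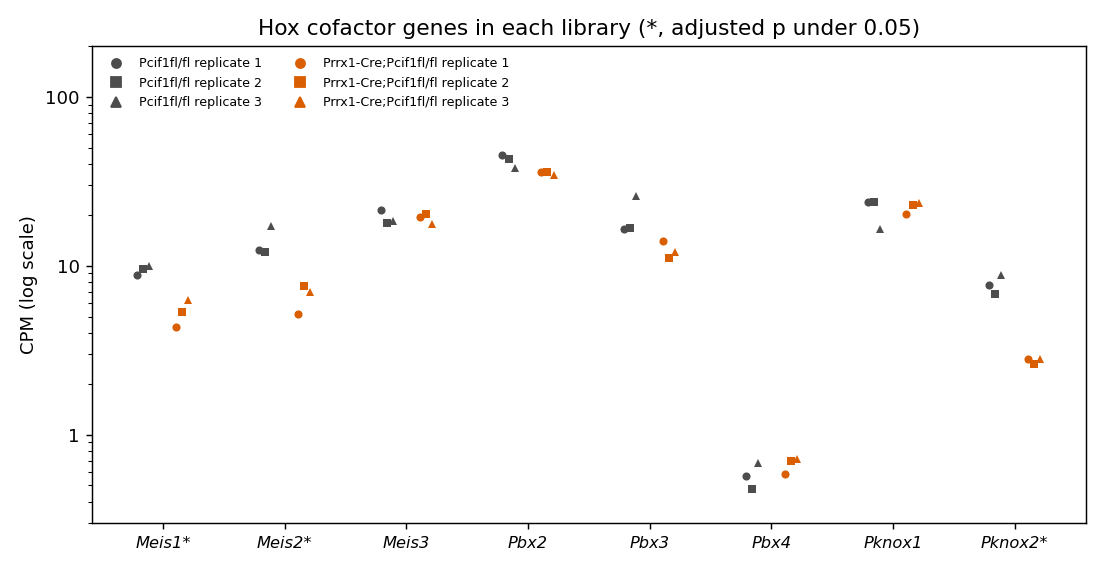
Level of TALE cofactor genes in CPM (log scale), with 1 point for each library; asterisks mark adjusted p-values under 0.05. Meis1, Meis2 and Pknox2 have every CKO point below every WT point, as have Pbx2 and Pbx3, which were not called.

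Genes that keep Hox clusters silent or active were read as well. Of 31 Polycomb genes, whose products hold silent Hox genes in a closed state, 1 was called lower, a share near the 4.51% of all genes, and 8 had every CKO library below every WT library and 0 above, beside 15.7% and 15.0% of all genes. The median log2 fold change of the list was -0.094. The gene called was Cbx7, at 12.5, 12.2 and 11.0 CPM in WT and 7.20, 8.90 and 7.26 CPM in CKO libraries (log2 fold change -0.61, adjusted p = 0.0385). It was not called with the replicate block or when WT replicate 1 or 2 or any CKO library was left out, and without WT replicate 3 the list had 5 genes called. Of 12 Trithorax and demethylase genes, which counter Polycomb, 0 were called, 3 had every CKO library below every WT library and 0 above, and the median was -0.17. Of the 7 tested genes of axial and retinoid signals, known inducers of Hox genes in the embryo, Crabp2, which carries retinoic acid to its receptors, was the 1 called, beside 2.88% of all genes called higher. It went from 21.2, 20.3 and 16.9 CPM in WT to 29.3, 30.9 and 27.2 CPM in CKO libraries (log2 fold change 0.58, adjusted p = 0.0256). Crabp2 was not called without WT replicate 2 or without any 1 of the CKO libraries.
Noncoding genes of the clusters were near the limit of detection, with Hotair between 3 and 21 counts and Hotairm1 between 12 and 18 counts in a library, and 0 of the 5 tested were called. Of the tested genes that flank the clusters, 9 for A, 7 for B, 9 for C and 9 for D, 0 were called. Over all genes, 4.51% were called lower and 2.88% higher. Of the 9 that flank cluster C, 4 had every CKO library below every WT library and 1 above, beside 15.7% and 15.0% of all genes. The median log2 fold change of these 9 was 0.029. The closest to the threshold was Calcoco1, next to cluster C (log2 fold change -0.53, adjusted p = 0.0505).

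Other genes of limb position moved in both directions. Of 17 tested, 4 were called lower and 2 higher in CKO libraries, beside 4.51% and 2.88% of all genes. Without 1 of the CKO libraries 1 or 2 were called in all, while the share of all genes called fell from 7.4% to between 3.38% and 3.73%. Irx3 and Irx5, homeobox genes of the proximal and anterior limb, were at 39.9, 33.4 and 33.7 CPM and 15.3, 12.5 and 18.7 CPM in WT, and at 20.4, 17.0 and 20.1 CPM and 8.95, 6.47 and 7.40 CPM in CKO libraries (log2 fold changes -0.90 and -1.02, adjusted p = 0.00373 and 0.0146). Msx1, a homeobox gene of the distal limb, was at 7.38, 6.13 and 6.31 CPM in WT and 3.91, 3.33 and 3.46 CPM in CKO libraries and had a log2 fold change of -0.88 (adjusted p = 0.0139). Tbx3, a limb T-box gene, rose from 3.32, 3.71 and 3.66 CPM to 7.06, 6.27 and 7.16 CPM (log2 fold change 0.94, adjusted p = 0.0078), and Tbx4 had a log2 fold change of 1.60 (adjusted p = 0.0396). Tbx4 was not called with the replicate block (adjusted p = 0.0507), without WT replicate 1 or 2 or without any 1 of the CKO libraries, and Tbx3 was not called without CKO replicate 1 or 3. Irx5 was not called without CKO replicate 2 or 3, and Msx1 without any 1 of the CKO libraries, while Irx3 was called under every alternative run. Pitx1 was not called (log2 fold change 0.21, adjusted p = 0.524). Of the homeobox genes related to Hox, Meox2, a mesodermal gene, was the 1 tested. It had 1, 0 and 5 counts in WT and 25, 9 and 22 counts in CKO libraries, so it passed the expression filter only through the CKO libraries. Meox2 was called higher (log2 fold change 3.44, adjusted p = 0.0293, not called without WT replicate 1 or 2 or CKO replicate 1 or 3). With so few WT counts the size of this fold is not known.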

How the data were processed

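The authors made the deposited counts by mapping clean paired reads of poly(A) libraries (NEBNext Ultra) to mm10 with HISAT2; how reads were counted, on which annotation and with or without strand, is not given in the sources used here. The counts are raw, per gene. Of 20163 rows, 92 repeat an Ensembl ID and 20071 were used. The filterByExpr filter left 13733 genes, which were tested by the quasi-likelihood test of edgeR 4.0.16 (R 4.3.3) after TMM scaling, without a covariate and with Benjamini-Hochberg adjustment. Calls had an adjusted p under 0.05, at any fold or at a fold of at least 2. Levels per kb used the union of exons in GENCODE M21 on GRCm38. Alternatives were DESeq2 1.42.0, limma 3.58.1 (voom), RLE or total-count scaling, other filters, the replicate block, splines for GC content and length, and leaving out each library. The fits were tested on simulated data. The Hox genes and the gene lists were chosen with earlier results of these data known. The genes named are the Hox genes, with values for each library where the mean was at least 1 CPM in a genotype or the gene was called, the list genes called (at most 5 of a list) and Pcif1, Prrx1, Pitx1, Tbx4 and Tbx5. Pcif1, Prrx1 and the cell type markers are given by means, ranges or fold changes. Ratios of paralogs, counts over cluster C, alternatives for single genes of the other lists and the choice of Cdh5 as an example were added after seeing the data. Values of some genes are not reported here, although counts and sums include them. Floors cover counting error only.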

Additional observations from a re-analysis of the deposited data

How the results depend on the processing

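Of the alternatives for the single Hox genes reported, the direction turned in 8 cases, all of genes that were not called: Hoxd8 with the GC content and length correction (0.015), Hoxa10 with total-count scaling (-0.0062), and single libraries left out, which gave between -0.16 and 0.15 for Hoxd8, -0.034 and 0.64 for Hoxa4, -0.36 and 0.0044 for Hoxa9 and -0.064 and 0.072 for Hoxa10. The 9 cluster C genes had negative log2 fold changes under every alternative run. The number of Hox genes called at any fold was 1 with limma-voom and between 0 and 7 with 1 library left out. The number at a fold of at least 2 was 1 with total-count scaling, 1 with the GC content and length correction and between 0 and 2 with 1 library left out. For cluster C the number was 1 with limma-voom and between 0 and 5 with 1 library left out. Leaving out 1 library gave between 1 and 6 TALE cofactors and between 1 and 9 limb position genes. The share of all genes called was then between 3.38% and 21.5%. The causes were not tested. The log2 ratios of CKO over WT for the summed levels of the 4 clusters moved by less than the spread between replicates with other scalings and other lengths. The levels themselves were not compared. Leaving out 1 library of 3 cannot move a mean by that much, so it says nothing of the stability of these ratios.

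The labels give both genotypes replicate numbers 1 to 3, but same-numbered libraries did not deviate together (correlations of 0.070, -0.055 and 0.0027 across genes), so the numbers do not pair them. With the replicate block, 1 Hox gene was called, Hoxc6, and 1 in cluster C. Members with under about 30 counts in a library (such as Hoxa2, Hoxa4, Hoxa13, Hoxb3, Hoxb9, Hoxc12, Hoxd8 and the 11 not tested) are limited by depth.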
